A study of Mus musculus with 2 samples.

Results

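CG methylation was examined at 9 chondrocyte genes in cultured osteoblasts with and without the TET enzymes: the transcription factor genes Sox5, Sox6 and Sox9, and the cartilage matrix genes Acan, Comp, Matn1, Matn3, Hapln1 and Col10a1. They are 9 of 21938 genes that GENCODE M21 lists as protein-coding, were chosen by name for their roles in cartilage, and were each taken with 50 kb on either side. Primary osteoblasts came from the calvaria of 3-day-old C57BL/6 mice, either wild type (WT) or carrying Prx1-Cre and floxed Tet1, Tet2 and Tet3 (TCKO), and were cultured for 3 days before whole genome bisulfite sequencing. Prx1-Cre acts in limb bud mesenchyme and in part of the skull mesenchyme, and cells outside its reach keep the floxed genes. The study made 1 library per genotype, and neither the number of animals behind each library nor the floxed alleles or Cre of the WT animals are given in the sources used here. No difference below therefore has a replicate check: each p-value compares 2 libraries and not 2 genotypes, and intervals cover counting error only. A level is the percentage of methylated calls among all calls on the CG cytosines of a region, 1 call being 1 read over 1 cytosine. It is an average over the cells of the culture, so a partial change in each cell and a full change in some cells cannot be told apart, and bisulfite treatment reads 5-methylcytosine and 5-hydroxymethylcytosine alike.

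TET enzymes oxidise 5-methylcytosine, which opens a route to its removal, and enhancers and the edges of unmethylated promoters are known sites of this turnover. In cartilage, SOX9 specifies the chondrocyte, and SOX5 and SOX6, which lack an activation domain of their own, work with it on enhancers of matrix genes. The matrix genes encode aggrecan (Acan), the large proteoglycan that holds water in cartilage, the link protein that ties aggrecan to hyaluronan (Hapln1), the adaptor proteins COMP, matrilin-1 and matrilin-3, and collagen X (Col10a1), which marks hypertrophic chondrocytes. Osteoblasts and chondrocytes share a mesenchymal origin, and SOX9 is present in the common progenitor.

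In WT, 36612779 CG cytosines were covered by 261127589 calls, and in TCKO 35831950 by 223645082, with a median of 4 calls on a covered cytosine in both. One stretch of each Tet gene had few calls in the TCKO library, with 755 against 70 in Tet1, 122 against 13 in Tet2 and 133 against 9 in Tet3 (WT against TCKO). Expression was not analysed here, so the labelled cell type was checked only by methylation. In WT, the starts of the osteoblast genes Col1a1, Runx2, Sp7 and Alpl stood at 0.613%, 13.8%, 20.9% and 32.1%, and those of 3 haematopoietic and 3 endothelial genes between 64.9% and 80.7%. The skeletal muscle genes Myod1 and Myog stood at 32.1% and 65.2%, so Myod1 was as low as Alpl. Of 7 chondrocyte markers, 5 had starts under 10% (Sox9, Acan, Col2a1, Hapln1 and Comp), and Matn1 and Col9a1 stood at 61.0% and 68.9%. Of the hypertrophic chondrocyte markers, Ihh stood at 6.65% and Col10a1 at 69.5%. A low level at a start is no measure of expression.

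The gene starts fell into 2 classes in WT, and the larger gains in TCKO were in the methylated class. Within 1 kb on either side of the start, Sox5, Sox6, Sox9, Acan, Comp and Hapln1 stood under 10% in WT and in TCKO, and Matn3, Matn1 and Col10a1 between 26.8% and 69.5% in WT. By the 2-sided Fisher exact test, adjusted over 21693 gene starts, methylation was higher in TCKO at 3 of the 9 starts (Sox5, Matn3 and Col10a1) and lower at none. The same call was made at 23.3% of all starts, so the count of 3 is near the background. The median difference was 1.48 points over the 9 genes and 3.00 points over all starts.

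Sox9 (chromosome 11 from 112782224 to 112787760, plus strand), the master regulator of the chondrocyte, was unmethylated at its start, with 0 methylated calls of 257 in WT and 0 of 206 in TCKO. Taking 3 calls as the most that a count of 0 allows, levels of up to 1.17% and 1.46% are possible, and the upper Wilson limits were 1.47% and 1.83%. Its window held 144 CG dinucleotides, the most of the 9 genes. Sox6 (chromosome 7 from 115470872 to 116038796, minus strand) had 22 methylated of 731 calls in WT and 11 of 741 in TCKO, or 3.01% and 1.48% (adjusted p = 0.149, Fisher exact test). Sox5 (chromosome 6 from 143828425 to 144781977, minus strand) had 12 of 389 calls in WT and 26 of 280 in TCKO. Its level rose from 3.08% (95% interval 1.77 to 5.31) to 9.29% (6.42 to 13.3), with adjusted p = 0.00668 by the exact test. The Sox5 gain lay away from the start itself, as the difference was 0.855 points within 500 bp (adjusted p = 0.863, exact test) and 9.19 points (4.37 to 14.6) in the first 1 kb of the gene. On cytosines with at least 4 calls in each library, the Sox5 difference within 1 kb was 15.5 points (adjusted p = 0.00538, exact test). With all calls, the 3 regulators thus stood under 10% in both libraries at the annotated 5′ end of the gene.

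The annotated 5′ end of Sox5 belongs to transcripts that are not protein-coding, and its first protein-coding start lies 572 kb downstream. There, 33 of 369 calls were methylated in WT and 60 of 255 in TCKO, a change from 8.94% to 23.5% with a difference of 14.6 points (8.74 to 20.7). A further Sox5 start 835 kb downstream was methylated in both libraries, at 78.2% and 89.1%. Among the internal starts of Sox6, the one 7.75 kb downstream had 37 of 271 methylated calls in WT and 6 of 157 in TCKO, a difference of -9.83 points (-14.9 to -4.26). Of the further Sox6 starts, 4 that lie 43.7, 179, 193 and 376 kb downstream differed by 2.33 to 8.61 points from WT levels of 77.2% to 81.7%. Internal starts were not tested over all genes, and their intervals cover counting error only.

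Among the matrix genes, Matn3 and Col10a1 changed most clearly at the start. Matn3 (chromosome 12 from 8947929 to 8972028, plus strand) was read by 381 calls at its start in WT and by 235 in TCKO. The level rose from 26.8% (22.6 to 31.4) to 41.7% (35.6 to 48.1), with adjusted p = 0.00128 by the exact test. The Matn3 gain lay on the upstream side, where the first 1 kb went from 23.0% to 42.6%, while the first 1 kb of the gene stood at 33.3% and 39.0% with overlapping intervals. Col10a1 (chromosome 10 from 34389981 to 34397085, plus strand), which lies inside Nt5dc1 on the opposite strand, had 296 of 426 calls methylated in WT and 297 of 369 in TCKO. Its level rose from 69.5% (65.0 to 73.7) to 80.5% (76.1 to 84.2), with adjusted p = 0.00328 by the exact test. Matn1 (chromosome 4 from 130944385 to 130955475, plus strand) had 94 of 154 methylated calls in WT and 68 of 91 in TCKO, or 61.0% and 74.7%. The Matn1 difference of 13.7 points had adjusted p = 0.111 by the exact test, on the fewest calls of the 9 starts. With 2 kb on either side, the Matn1 difference was 11.5 points with adjusted p = 0.0100 by the exact test.

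The other 3 matrix genes had low starts in both libraries. Acan (chromosome 7 from 79053483 to 79115099, plus strand) had 17 of 262 methylated calls in WT and 22 of 276 in TCKO, or 6.49% and 7.97%. Comp (chromosome 8 from 70373558 to 70382066, plus strand) had 61 of 642 and 47 of 504, or 9.50% and 9.33%. Hapln1 (chromosome 13 from 89539796 to 89611652, plus strand) had 10 of 355 and 13 of 359, or 2.82% and 3.62%. The intervals of these differences were -3.03 to 5.98 points for Acan, -3.54 to 3.33 for Comp and -1.93 to 3.59 for Hapln1. With 2 kb on either side, Hapln1 reached a difference of 9.38 points with adjusted p = 9.25e-05 by the exact test. In that wider window Sox6 was lower in TCKO, with a difference of -2.70 points and adjusted p = 0.0265 by the exact test.

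**Figure D1:**
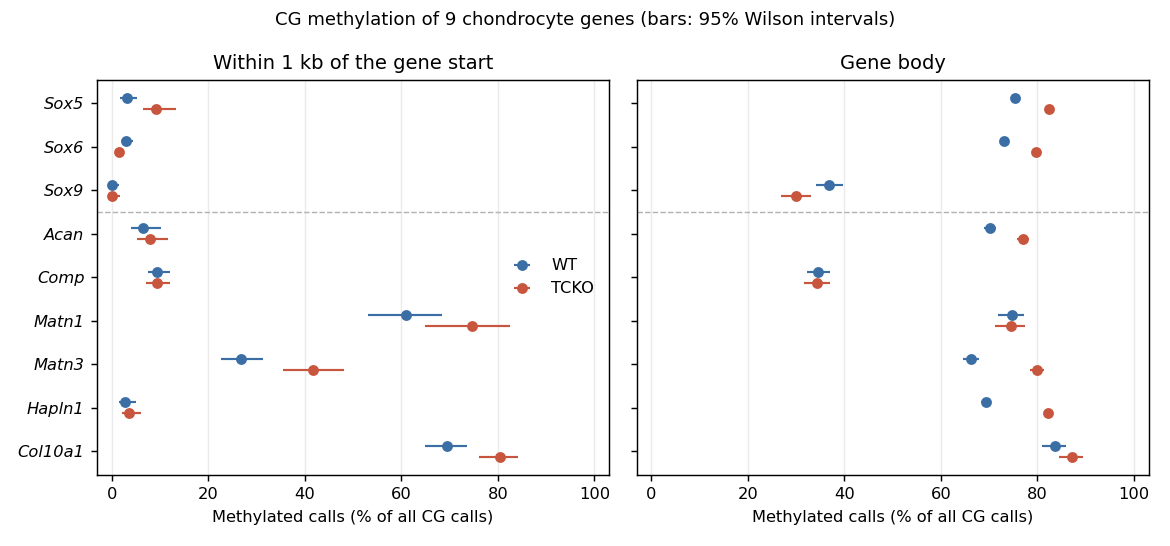
CG methylation of the 9 genes (rows, regulators above the dashed line) in WT (blue) and TCKO (red), as the percentage of methylated calls within 1 kb of the gene start (left) and over the gene body (right), with 95% Wilson intervals. At the starts, 6 genes sit under 10% in both libraries, and over the bodies only Sox9, of the 9, sits clearly lower in TCKO (36.9% and 29.9%).

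The 3 short stretches that follow are printed to show what a start with and without a gain looks like in sequence, come from the GRCm38 reference, 5′ to 3′ on the plus strand with every CG in capitals. The Sox9 bin (chr11:112781601-112781800, from -623 to -424 bp of the start) is the one with the most calls among the 200 bp bins of the 1 kb before that start. The Matn3 bin (chr12:8947401-8947600, centred 429 bp before the start) and the Col10a1 bin (chr10:34389601-34389800, centred 281 bp before the start) are the bins nearest to their gene starts that gained at least 40 points.
Sox9: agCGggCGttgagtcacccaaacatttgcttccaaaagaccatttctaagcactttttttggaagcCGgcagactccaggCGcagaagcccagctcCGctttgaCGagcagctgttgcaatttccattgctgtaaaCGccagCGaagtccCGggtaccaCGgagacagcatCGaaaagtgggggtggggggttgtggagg
Matn3: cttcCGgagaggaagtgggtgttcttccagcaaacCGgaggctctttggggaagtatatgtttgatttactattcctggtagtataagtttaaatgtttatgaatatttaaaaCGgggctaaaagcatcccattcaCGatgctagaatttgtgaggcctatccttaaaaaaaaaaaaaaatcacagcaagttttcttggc
Col10a1: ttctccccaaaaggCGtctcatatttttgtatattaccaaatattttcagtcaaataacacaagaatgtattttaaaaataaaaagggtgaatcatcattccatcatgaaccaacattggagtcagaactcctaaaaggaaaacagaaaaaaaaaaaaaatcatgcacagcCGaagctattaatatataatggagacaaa

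The Sox9 bin is dense in CG, with 11 in 200 bases, and had 0 of 59 calls methylated in WT and 0 of 17 in TCKO, which allows levels of up to 5.08% and 17.6% by the same limit of 3 calls. The Matn3 bin has 4 CG and went from 8 of 65 calls (12.3%) to 23 of 42 (54.8%). Its CG differed among themselves: the 2 farthest from the gene start went from 3 of 14 to 9 of 12 and from 3 of 15 to 9 of 9, while the 2 nearest went from 2 of 17 to 3 of 11 and from 0 of 19 to 2 of 10. The Col10a1 bin has 2 CG and went from 9 of 63 calls (14.3%) to 42 of 58 (72.4%). Both Col10a1 sites gained, from 5 of 34 to 19 of 29 and from 4 of 29 to 23 of 29. As this bin was picked among called bins, a gain at its sites is no separate check. Within the mostly methylated Col10a1 start, this bin was thus a short low stretch in WT that was methylated in TCKO.

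In 7 genes a low stretch surrounded or touched the start, and its edges were higher in TCKO in 5 of them, by intervals above 0. Such edges were not measured over all genes, so the count has no background share and is not read as a trait of these genes. Of all gene bodies, 64.4% were called higher. The low stretch was taken as the joined 1 kb windows under 30% in WT that touch the start, and its edges as the 2 kb on either side. Matn1 and Col10a1 had no such stretch. In Sox6 it ran from 2 kb before to 9 kb after the start and had 198 of 2813 calls methylated in WT and 180 of 2367 in TCKO, 7.04% and 7.60%, a difference of 0.566 points (-0.852 to 2.01). The 2 kb on either side of that stretch went from 63.6% to 79.1%, a difference of 15.5 points (8.51 to 22.0). Inside it, the window from 3 to 4 kb went from 6.90% to 17.1% and the window from 7 to 8 kb from 13.7% to 0.775%, so differences of both signs lay within the same stretch. In Hapln1 the low stretch reached from 1 kb before to 4 kb after the start and went from 10.4% to 17.6%, with 65.9% and 84.6% at its edges. There the window from 2 to 3 kb into the first intron had 13 of 109 methylated calls in WT and 19 of 45 in TCKO. In Acan the stretch of 3 kb went from 9.57% to 15.1% and its edges from 59.4% to 74.1%. In Sox5 the stretch of 2 kb is the window already given, and its edges went from 80.7% to 89.4%. In Matn3 the stretch was the 1 kb before the start, already given, and its edges went from 55.1% to 70.0%. In Comp the edges stood at 70.9% and 70.6%, with an interval of the difference from -8.39 to 7.48 points.

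Sox9 went the other way with its edges pooled, through the edge on the gene side. Its low stretch ran from 3 kb before to 2 kb after the start and had 159 of 1204 calls methylated in WT and 99 of 861 in TCKO, or 13.2% and 11.5%. The 2 kb on either side stood at 55.3% and 46.6%, a difference of -8.72 points (-14.7 to -2.65). The lower level was on the gene side: from 2 to 3 kb after the start 60 of 149 calls were methylated in WT and 12 of 82 in TCKO, from 3 to 4 kb 119 of 239 and 64 of 216, and from 4 to 5 kb 116 of 184 and 84 of 177. The differences were -25.6 points (-35.7 to -13.7), -20.2 points (-28.6 to -11.2) and -15.6 points (-25.4 to -5.33). The TCKO level was below the WT level in each of them.

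**Figure D2:**
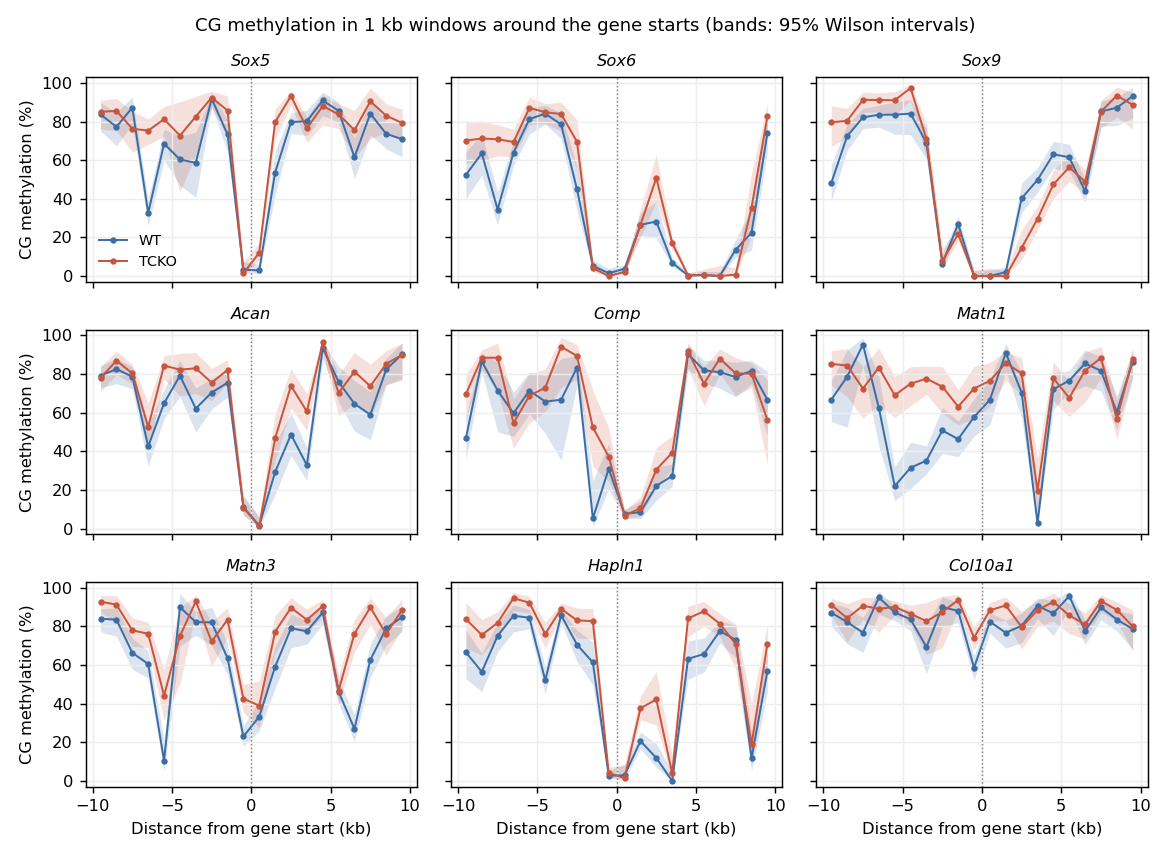
CG methylation (percentage of methylated calls) in 1 kb windows from 10 kb before to 10 kb after each gene start, in the direction of transcription, in WT (blue) and TCKO (red) with 95% Wilson bands. The starts of Sox5, Sox6, Acan, Comp and Hapln1 stay low in TCKO, Sox9 is lower in TCKO from 2 to 5 kb after the start, and Matn1 loses the low region of WT between 6 and 3 kb before the start.

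Over the gene bodies, methylation was higher in TCKO at 5 of the 9 genes and lower at 1. The 5 were Sox5, Sox6, Acan, Matn3 and Hapln1, and the 1 that fell was Sox9, by the exact test adjusted over 21625 bodies. Of all bodies, 64.4% were called higher and 2.79% lower, so the 5 genes are no more than the background. The largest gains were in matrix genes. Hapln1 rose from 69.4% (5811 of 8375 calls) to 82.3% (5932 of 7210), by 12.9 points (11.6 to 14.2), and Matn3 from 66.2% (2179 of 3291) to 80.0% (2186 of 2734), by 13.7 points (11.5 to 15.9). A gain as large as that of Matn3 was found in 5.21% of gene bodies, and as large as that of Hapln1 in 6.61%. The median over all bodies was 5.66 points.

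Acan rose from 70.3% to 77.0% (6.72 points, 4.98 to 8.45, adjusted p = 1.75e-13 by the exact test). Sox5 rose from 75.3% to 82.3% (7.06 points, 6.74 to 7.39) and Sox6 from 73.1% to 79.7% (6.62 points, 6.11 to 7.13), on 135826 and 60607 WT calls. Col10a1 stood at 83.6% and 87.2%, with adjusted p = 0.0699 by the exact test. Comp, at 34.6% and 34.3%, and Matn1, at 74.7% and 74.5%, did not pass the test, with intervals of the difference from -3.92 to 3.38 points and from -4.42 to 3.91. Sox9 had 406 of 1101 calls methylated in WT and 255 of 852 in TCKO, 36.9% and 29.9%. The difference was -6.95 points (-11.1 to -2.72) with adjusted p = 0.00259 by the exact test, and a difference as low or lower was found in 2.48% of gene bodies. On the plus strand alone Sox9 fell by 10.4 points (adjusted p = 0.000960, exact test), and on the minus strand the difference of -2.90 points did not pass the exact test (adjusted p = 0.439).

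Exons and introns differed in the same direction in 7 of the 9 genes. In Sox9, exons went from 46.9% to 36.4% and introns from 15.6% to 5.08%, so both parts were lower in TCKO. In Matn3, introns rose from 64.0% to 78.7% and exons from 75.3% to 84.6%. In Hapln1, introns went from 69.5% to 82.5% and exons from 67.9% to 80.1%. In Comp the signs were opposite, with exons at 42.1% and 36.0% (-12.0 to -0.0718 points) and introns at 29.9% and 33.2% (-1.22 to 7.94). In Matn1 they were opposite too, with both intervals reaching across 0.

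With the calls of each group pooled, bodies of the regulators rose from 74.4% to 81.2%, by 6.83 points (6.55 to 7.11), and those of the matrix genes from 67.4% to 77.2%, by 9.77 points (8.87 to 10.7). Sox5 and Sox6 gave most of the regulators' calls, and Hapln1, Acan and Matn3 most of the matrix genes' calls. With each gene counted once, the means of the differences were 2.25 points for the regulators, with Sox9 negative, and 6.07 points for the matrix genes. The medians of the differences stood in the other order, at 6.62 points for the regulators and 5.16 points for the matrix genes, so the order of the groups depended on the summary.

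The flanks were higher in TCKO too. In the 50 kb before the start, the difference was largest in Matn1 (65.2% and 80.4%, 15.2 points) and Matn3 (61.7% and 76.8%, 15.1 points), followed by Sox9 (69.8% and 79.1%, 9.31 points), and smallest in Sox6 (69.0% and 70.1%, 1.04 points with an interval of -0.770 to 2.84). In the 50 kb after the gene end, all 9 genes were between 3.81 points (Sox5) and 9.23 points (Matn1) higher. Over all CG calls of each library the level was 70.2% in WT and 76.3% in TCKO. Flanks of all genes were not measured, so the higher flanks are not read as a trait of these genes. In Sox9, Matn1, Comp and Col10a1, flanks higher by 7.17 to 15.2 points thus lay around a body that fell or did not pass the test.

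In bins of 200 bp, gains of at least 40 points were found in the windows of all 9 genes. The share of all gene windows with such a bin was not taken, so this count is not read as a trait of the 9. Bins were tested where each library covered 4 or more CG cytosines with 4 or more calls on average, and a gain was called with adjusted p below 0.05 by the exact test over all testable bins. Of 2868 testable bins, 124 (4.32%) were called, against 2.99% of all 2316703 testable bins. The regulators had 90 of 2190 (4.11%) and the matrix genes 34 of 678 (5.01%). Called bins in the windows had a median level of 28.9% in WT and 81.8% in TCKO, and those of the whole genome 26.5% and 81.4%. Losses of the same size were called in 4 of the 2868 bins, all in introns of Sox5 and Sox6, against 0.032% of all testable bins.

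**Figure D3:**
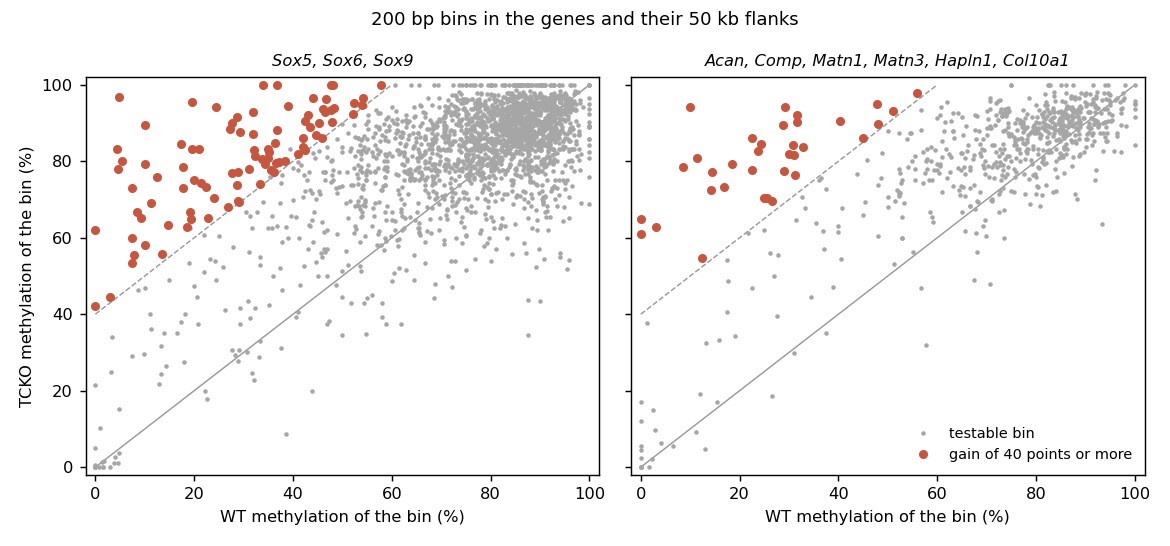
WT methylation (horizontal axis, percentage of methylated calls) against TCKO methylation (vertical axis) of the 2190 testable bins of the Sox genes (left) and the 678 of the matrix genes (right). Solid lines mark equal levels, dashed lines a gain of 40 points, and the 124 called bins (red) start from WT levels of 0 to 57.9%.

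Gains were spread unevenly over the genes. The Matn1 window had the highest share, with 7 of 58 testable bins (12.1%), none of the 7 in the gene body. That share was reached by 0.273% of 21588 protein-coding genes with at least 20 testable bins, whose median was 1.75%. Col10a1 followed with 6 of 100 (6.00%), Hapln1 with 10 of 179 (5.59%), Sox6 with 29 of 649 (4.47%), Sox5 with 58 of 1416 (4.10%) and Matn3 with 7 of 176 (3.98%). Acan (3 of 123), Sox9 (3 of 125) and Comp (1 of 42) were between 2.38% and 2.44%, near the background. Only 9.21% of the Comp bins and 12.2% of the Matn1 bins with any call were testable, against 27.7% to 35.1% in the other genes except Acan (18.8%).

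The 124 bins lay where most testable bins lay, in the bodies of the regulators and outside those of the matrix genes. Of the 90 bins of the regulators, 82 lay in the bodies, 81 of them in introns. Of the 34 bins of the matrix genes, 12 lay in the bodies (8 in Hapln1, 3 in Matn3 and 1 in Acan), 14 upstream and 8 downstream. Per testable bin, the bodies of the regulators had 82 of 1887 (4.35%) called against 8 of 303 (2.64%) outside. Those of the matrix genes had 12 of 166 (7.23%) against 22 of 512 (4.30%) outside. The matrix share rested mostly on Hapln1, with 8 of its 83 testable body bins called, and is no trait of the group. The same split was not made over the genome. The bodies of Matn1, Col10a1, Comp and Sox9 held no called bin, on 2, 9, 4 and 11 testable ones. Of the 124 bins, 19 lay in another annotated gene. The bins formed 106 stretches, of which 89 were a single bin and 16 a pair. As 2868 of the 9858 bins with calls were testable, neighbours of a called bin were often untested, and the stretches do not give the length of the gained regions.

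The next 3 sequences, each the bin with the largest gain in its gene, are printed to show how few CG carried these changes, again from the plus strand of GRCm38 with every CG in capitals. They are the Sox5 bin (chr6:143992601-143992800, intron 6 of the longest coding transcript), the Matn1 bin (chr4:130938601-130938800, centred 5.68 kb before the start) and the Hapln1 bin (chr13:89584401-89584600, across the first bases of a noncoding transcript of Hapln1 that GENCODE lists as a retained intron).
Sox5: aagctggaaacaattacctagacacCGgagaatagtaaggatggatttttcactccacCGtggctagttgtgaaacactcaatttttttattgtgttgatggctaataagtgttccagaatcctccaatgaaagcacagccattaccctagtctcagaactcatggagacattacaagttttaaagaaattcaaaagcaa
Matn1: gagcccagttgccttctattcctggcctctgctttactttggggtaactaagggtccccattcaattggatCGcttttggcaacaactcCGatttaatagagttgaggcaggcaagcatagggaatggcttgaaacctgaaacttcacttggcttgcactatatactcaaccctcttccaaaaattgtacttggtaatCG
Hapln1: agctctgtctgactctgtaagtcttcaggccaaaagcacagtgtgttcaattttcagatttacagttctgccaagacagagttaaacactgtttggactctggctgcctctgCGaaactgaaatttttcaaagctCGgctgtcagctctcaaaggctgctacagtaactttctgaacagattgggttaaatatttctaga

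The Sox5 bin had the largest gain of the 124 bins, from 2 of 41 calls (4.88%) to 31 of 32 (96.9%), or 92.0 points (75.1 to 96.4). Its 2 CG went from 1 of 20 to 17 of 17 and from 1 of 21 to 14 of 15. The Hapln1 bin has 2 CG as well and went from 2 of 20 calls to 16 of 17. The Matn1 bin has 3 CG and went from 3 of 35 calls (8.57%) to 22 of 28 (78.6%). In all 3 bins, every CG was higher in TCKO than in WT. As bins of 2 or 3 CG were chosen here for their gain, this is no separate check.

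**Figure D4:**
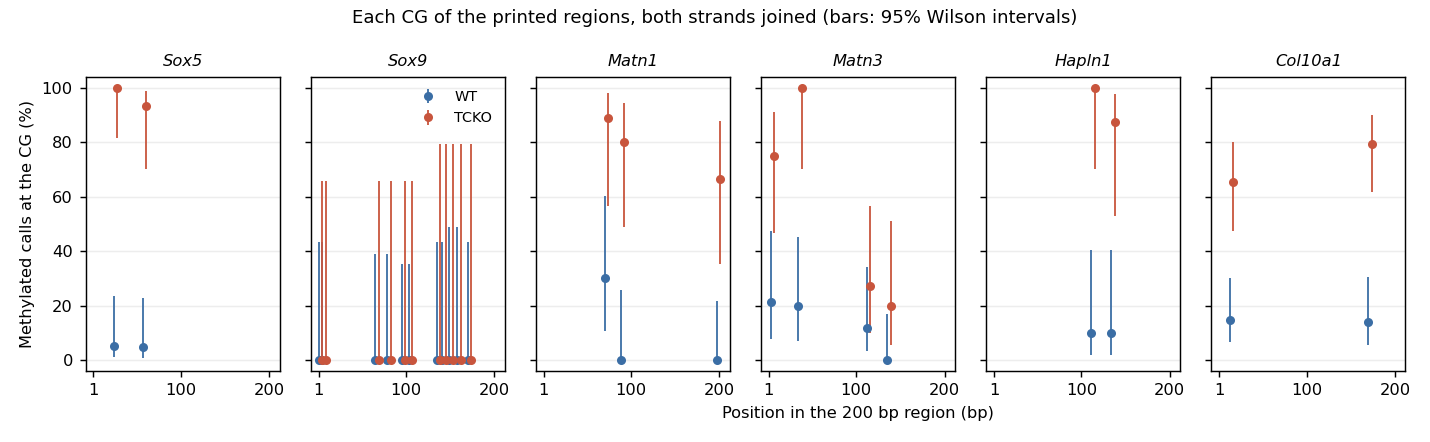
Methylated calls (percentage, vertical axis) at each CG of the 6 printed regions against its position in the region (bp), with both strands joined, for WT (blue) and TCKO (red) and with 95% Wilson intervals. The 11 CG of the Sox9 region are at 0 in both libraries. In the other 5 regions, picked among called bins, each CG is higher in TCKO, with the smallest gains at the last 2 CG of Matn3.

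Of the 58 called bins in the window of Sox5, 27 lay in the body before the first coding start and 28 in the body after it. That start lies 572 kb into a gene of 953553 bp, so the parts differ in length. Testable bins were not counted for each part. Of the introns of the longest coding transcript, 8 held called bins, with 8 bins in intron 3 alone. The run with the most bins of the 124 was in Sox5 too, with 3 adjoining bins (chr6:144477201-144477800), 304 kb into the gene, where 78 of 218 calls were methylated in WT and 159 of 189 in TCKO, 35.8% and 84.1%. The called bin nearest to the Sox5 start was 6.12 kb upstream (chr6:144788001-144788200) and went from 9.23% to 65.1%. Of the Sox5 bins, 6 also lay in the gene Sox5os4.

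Sox6 had called bins in 8 introns of its longest coding transcript, with 9 of them in intron 4. The bin nearest to its gene start was 18.7 kb into the gene (chr7:116020001-116020200) and went from 28.6% (49 calls) to 73.7% (38 calls). Of the 90 called bins of the regulators, 3 lay within 2 kb of a coding start, all of them in Sox6. Over the 9 genes it was 8 of 124, and over the genome 5.02% of called bins, so these counts are near the background. Sox9 had 3 called bins, all of them over 24 kb from its start: 49.5 kb upstream (31.0% and 78.1%), 24.1 kb upstream (22.7% and 65.2%) and 39.5 kb downstream (38.5% and 80.0%). Both upstream bins lie in the noncoding gene BC006965.

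Matn1 had 4 called bins upstream and 3 downstream, from 0 to 40.3% in WT and from 65.0% to 90.6% in TCKO. Its largest gain is the printed bin 5.68 kb upstream, and the nearest was 4.88 kb upstream (chr4:130939401-130939600) with 6 of 20 calls in WT and 27 of 33 in TCKO. They belong to a wider region, as the 1 kb windows from 6 to 5, 5 to 4 and 4 to 3 kb upstream went from 22.0% to 69.0%, from 31.5% to 75.0% and from 35.2% to 77.6%. The other 2 upstream bins lay in Laptm5, a gene of haematopoietic cells next to Matn1. The downstream bin that went from 40.3% to 90.6% lay in the gene Gm12973. In Matn3, besides the bin at the start, the largest gain was 34.6 kb upstream in the noncoding gene Gm47391 (chr12:8913201-8913400), from 0 of 22 calls, which allows up to 13.6%, to 14 of 23 (60.9%). Intron 2 of Matn3 held 2 called bins, 8 of 33 calls against 22 of 26 and 5 of 21 against 19 of 23, and Laptm4a next to Matn3 held 1.

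Hapln1 had 2 called bins upstream and 8 in its body, 6 of which formed 3 pairs in introns 1 and 2. Its nearest bin to the start was 12.1 kb upstream (chr13:89527601-89527800), from 45.0% (80 calls) to 86.1% (72 calls). The pair 60.8 kb into the gene, in intron 2, had the most calls, with 28 of 150 methylated in WT and 124 of 157 in TCKO (18.7% and 79.0%). In Col10a1, the largest gain was 27.3 kb downstream in Nt5dc1 (chr10:34417201-34417400), from 28.8% to 89.4%, and a pair of bins 42.4 kb downstream went from 24 of 132 calls to 95 of 133. Acan had called bins 5.18 kb upstream (28.9% and 77.5%) in the gene Gm26633, 14.2 kb into intron 1 (26.5% and 69.7%) and 109 kb downstream of its start (chr7:79162001-79162200, 16.9% and 73.2%). The 1 called bin of Comp lay 40.3 kb after its start inside Crtc1 (chr8:70413801-70414000) and went from 55.8% to 98.0%.

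Bins already low in WT separated by their distance from a start. Of the 158 testable bins under 30% in WT, 43 lay within 2 kb of the start of a protein-coding transcript and 115 farther away. Of the 43 near bins, 7 (16.3%) were called, with a median level of 9.84% in TCKO. Of the 115 far bins, 59 (51.3%) were called, with a median of 60%. The shares over the genome were 9.47% near and 43.5% far, so near bins were called less often than far bins over the genome as well. The far share was 50.6% in the regulators (42 of 83) and 53.1% in the matrix genes (17 of 32). Without Sox5 it was 45.5%, and the near share 18.9%.

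**Figure D5:**
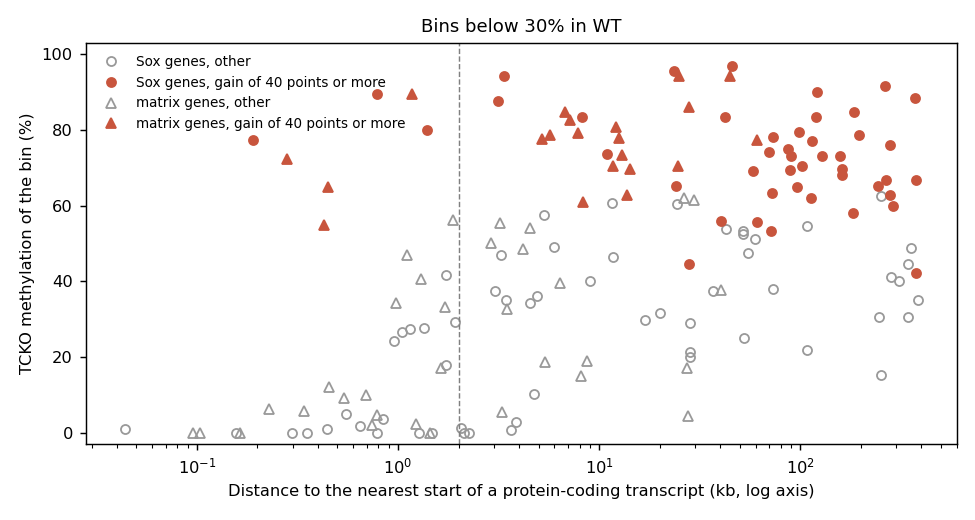
TCKO methylation (percentage, vertical axis) of the 158 bins under 30% in WT against the distance to the nearest start of a protein-coding transcript (kb, log axis), for the Sox genes (circles) and the matrix genes (triangles), with called bins filled red. Left of the dashed line at 2 kb, 7 of 43 bins are called and many stay near 0, and right of it 59 of 115 are called.

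The called bins shared a low CG density, with a median of 3 CG, as in all testable bins, and a median GC content of 42.0% against 41.5%. None held more than 8 CG, and 50 of the 124 held 2. Of the 124 bins, 32.3% held no repeat-masked base, against 23.6% of all testable bins and 33.4% of those called in the whole genome. Letter strings of 5 factor families were searched on both strands, and a match is a description of letters and not a binding site. TTGGCA (NFI) was in 25 bins (20.2%), against 9.38% of all testable bins and 17.1% of called bins of the genome. TGANTCA (AP-1) was in 15 (12.1%, against 5.86% and 13.0%), AACCACA (Runt) in 12 (9.68%, against 5.11% and 9.05%) and CATTCCA (TEAD) in 7 (5.65%, against 3.20% and 5.62%). ACAANG (SOX), a core that the 3 regulators themselves recognise, was in 48 bins (38.7%), against 39.0% of all testable bins and 32.8% of called bins of the genome. The printed Col10a1 bin holds TGANTCA and CATTCCA, and the printed Matn1 and Hapln1 bins hold TTGGCA. The printed Sox9 bin also holds TGANTCA and was unmethylated in both libraries.

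In 4 bins methylation was lower in TCKO by more than 40 points. In Sox5 they lay in intron 3, 692 kb and 669 kb into the gene, with 63 of 70 methylated calls in WT and 20 of 46 in TCKO, and 42 of 44 and 14 of 27. In Sox6 they lay in introns 13 and 9, with 35 of 40 and 10 of 29, and 68 of 71 and 19 of 35. No such bin was found among the 125 testable bins of Sox9 and the 678 of the matrix genes. At the genome share of 0.032% these are too few bins for the absence to be read. At the threshold of a gain, the last bins inside had gains of 40.3 points each, and the first ones outside 39.8 and 39.7 points, all 4 in Sox5.

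Other genes of cartilage gave a background for the 9. Of 30 further cartilage genes, 8 (26.7%) had a higher start in TCKO and none a lower one, with a median difference of 4.85 points. A higher body was called in 25 (83.3%), and 168 of 4526 testable bins (3.71%) were called. The largest gains at the start were in Runx3 (29.5% and 81.1%), Fmod (26.8% and 68.0%) and Slc26a2 (24.0% and 50.3%), which encode a Runt factor, fibromodulin and a sulfate transporter. The most negative differences, with lower levels in TCKO, were in Col9a3 (29.9% and 16.7%, adjusted p = 0.0791 by the exact test), Cnmd (57.9% and 55.2%) and Chad (29.3% and 28.1%). Of 12 osteoblast genes, 5 (41.7%) had a higher start and 1 a lower one. A higher body was called in 11 (91.7%), with a median difference of 15.2 points, and 209 of 2305 bins (9.07%) were called. Over all genes, 23.3% of starts and 64.4% of bodies were called higher, and 2.99% of all testable bins were called. The share of lower starts over all genes was not taken. The median difference over the body of the 9 chondrocyte genes was 6.62 points, close to the 5.66 points of all genes.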

How the data were processed

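CG methylation was measured by whole genome bisulfite sequencing in 1 WT and 1 TCKO library. Per the labels and the methods, the authors aligned reads to GRCm38 with BSMAP 2.74, allowing 2 mismatches, and kept uniquely mapped reads. The authors deposited, for each CG cytosine and strand, the counts of methylated calls and of all calls, not normalized. Duplicate removal is not given in the sources used here, and calls on 1 read are not independent.

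Counts were pooled over gene starts, gene bodies and 200 bp bins of GENCODE M21 genes. In the text a level of 0 carries the limit that 3 calls would give, other levels (and all points in plots) 95% Wilson intervals, and differences 95% Newcombe intervals. The 2-sided Fisher exact test was adjusted by Benjamini-Hochberg over all protein-coding genes with at least 20 calls in each library, or over all testable bins. All 9 genes were named, with their called bins of largest gain and nearest to the start, the longest run, the bins at the threshold, and neighbouring genes that hold a called bin. The exception is Sox6, whose called bin of largest gain and the internal start beside it are not reported here. At most 6 of the 30 other cartilage genes were named, by the most positive and most negative difference at the start. The printed bin of a gene is its largest gain, or for Matn3 and Col10a1 the called bin nearest to the start, and the Sox9 bin, the low stretches and the other bins, windows and internal starts described were chosen after values were seen. The members and lists were chosen with earlier results of these data known. The code was tested on simulated data. Python 3.11.15 was used with numba 0.67.0, scipy 1.17.1 and numpy 2.4.6.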

Additional observations from a re-analysis of the deposited data

How the results depend on the processing

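With 1 library per genotype no replicate could be left out. No paired analysis was possible because each genotype has 1 library. Over 37 alternatives for the 5 main values, 22 stayed within the interval or within 1.5 times the count, and 15 did not. The pooled regulator difference of 6.83 points was 7.79 as a mean of cytosine levels, 2.25 as a mean of single genes and 6.37 without Sox5. The matrix difference of 9.77 points was 10.9 on the plus strand, 8.60 on the minus strand and 6.07 as a mean of single genes. The count of 3 higher starts was 5 with 2 kb on either side and 0 if a gain of 20 points was also asked, and that of 5 higher bodies was 2 if 10 points were asked. The 124 called bins became 192 at a mean of 1 call, 16 at 10 calls, 32 with at least 8 CG cytosines, 33 at 60 points, 270 at 20 points and 66 without Sox5. Leaving out Sox5, and bins in other genes (105), was chosen after seeing the data.

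Among differences of single genes, 10 values turned their sign, and 1 of them, at the Sox5 start, was of a called gain (6.20 points). From 1 kb upstream to 100 bp downstream of the start, the difference was -1.82 points in Sox5, -0.529 in Acan and 7.81 in Comp. It was 1.71 in Comp with 2 kb on either side and -0.493 in Hapln1 within 500 bp. Over the Comp body it was 4.02 points on cytosines with at least 4 calls, 2.36 on the plus strand, 5.46 without the first 2 kb and 2.37 as a mean of cytosine levels, and over the Matn1 body 3.31 on the plus strand. The cause was not tested. With a median of 4 calls per cytosine, levels of single CG are coarse.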
